A study of Schizosaccharomyces pombe with 4 samples.

Results

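The 10 histone genes of the fission yeast Schizosaccharomyces pombe were followed in long reads of nascent RNA, that is, RNA taken from nuclei while much of it is still being made. They were chosen by name, as the genes of the core histones and of 1 histone variant, and reads were counted on the strand of each gene. They are 10 of the 5113 protein-coding genes annotated on chromosomes I to III, and they held 514 of the 234996 aligned reads. All 10 had at least 1 read in the 4 libraries together.

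The prp2-1 library came from cells of strain prp2-1, which carry leu1.32 and the allele prp2-C387Y, grown at 26 °C and then held at 37 °C for 2 hours. The wild-type 37 °C library came from strain L972 (h-), treated in the same way. The wild-type 30 °C libraries came from strain L972 (h-) for replicate 1 and from strain SP286 (prp5::KanMx-prp5-WT, h+) for replicate 2, so these replicates differ in strain and mating type. All cultures grew in the complete medium YES, and polyadenylated RNA and ribosomal RNA were removed from the nuclear RNA. The gene prp2 encodes the large subunit of U2AF, which recognises the end of introns, and prp2-1 is a temperature-sensitive allele. The files give positions without bases, so they do not show the allele, and the gene itself had 4 reads in prp2-1 and 7 in the 37 °C wild type. Each 37 °C group is 1 library, so tests there compare libraries, not conditions.

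A nucleosome is DNA wrapped around a core of histones H2A, H2B, H3 and H4. Fission yeast, like other yeasts, keeps the genes of interacting histones in divergent pairs, which are read outwards from a shared gap, and transcribes them mainly in S phase, when new DNA has to be packed. Yeast histone mRNAs are polyadenylated, unlike most histone mRNAs of animals. The gap holds the AACCCT box, which the GATA-type factor Ams2 binds to switch the genes on in S phase. The variant H2A.Z, encoded by pht1, replaces H2A in nucleosomes near gene starts.

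The 4 histone pairs are hta1 (H2A) with htb1 (the only H2B gene), hht1 (H3) with hhf1 (H4), hht2 with hhf2, and hht3 with hhf3. The second H2A gene, hta2, and pht1 stand apart from them. The longest sequence that the 4 gaps and the 200 nt before hta2 have in common, on either strand, was AACCCTAACCCT, the box in tandem, and each window held it once. The lines below show it in capitals for 3 of the pairs and for hta2, since it is the sequence these genes share. Sequences and coordinates are from RefSeq, build ASM294v3.

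hht1 and hhf1, chrI:4699640-4699669, plus strand: aatctgcatcaaAACCCTAACCCTgctttt
hht2 and hhf2, chrII:1365054-1365083, minus strand: tcagtcaatcacAACCCTAACCCTgattta
hht3 and hhf3, chrII:3529615-3529644, plus strand: aactttgatcacAACCCTAACCCTttaatt
hta2, chrI:4053365-4053394, minus strand: aacatccatcaaAACCCTAACCCTgtatat

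The tandem box was searched on both strands in the 200 nt before each annotated gene start. It was present in 19 of 5113 protein-coding genes (0.372%), of which 9 were the histone genes other than pht1. Since it was read off these genes, that count describes them and tests nothing. The single box AACCCT, which the tandem form contains, was present in 349 genes (6.83%), again with those 9. A match is a description of the letters and says nothing of whether the factor was bound.

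Depth was low. The libraries held 33746 aligned reads in prp2-1, 32176 in the 37 °C wild type, 123756 in 30 °C replicate 1 and 45318 in replicate 2. Protein-coding genes took 74.3% of them in prp2-1, 80.7% in the 37 °C wild type, 50.1% in replicate 1 and 71.3% in replicate 2. Alignments had a median length on the genome of 771 nt in prp2-1, 890 nt in the 37 °C wild type, 256 nt in replicate 1 and 436 nt in replicate 2. Both 37 °C libraries came from the same 6 sequencing cells and the 30 °C libraries from others, so sequencing cell and temperature cannot be told apart. Read names placed 3769 names in both 37 °C libraries, 13 of them with a histone read in either and 0 with a histone read in both. Intervals below are 95% intervals and cover counting error only, since PCR copies cannot be told from separate molecules. The reads come from whole cultures, in which fewer cells in S phase and less histone RNA per cell cannot be told apart.

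Histone reads were scarcer among protein-coding reads at 37 °C than at 30 °C, and prp2-1 and the wild type at 37 °C were close to each other. There were 54 histone reads in prp2-1, or 21.5 per 10000 protein-coding reads (Wilson interval 16.5 to 28.1). The 37 °C wild type had 68, or 26.2 per 10000 (20.7 to 33.2). The 30 °C libraries had 239 reads in replicate 1, or 38.5 per 10000 (34.0 to 43.7), and 153 in replicate 2, or 47.3 per 10000 (40.4 to 55.4), with a mean of 42.9 ± 6.22 (SD, n = 2). Both 37 °C libraries lay below both 30 °C libraries. The ratio of the 37 °C wild type to replicate 1 was 0.680 (0.520 to 0.890) and to replicate 2 it was 0.554 (0.416 to 0.736).

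That difference depended on what the histone reads were set against. The histone genes are short, with 1319 nt for the longest, and the 1568 protein-coding genes of at most that length held fewer of the protein-coding reads at 37 °C. They held 14.7% in prp2-1, 14.1% in the 37 °C wild type, 25.6% in replicate 1 and 21.3% in replicate 2. Per 10000 reads of these short genes, histone reads numbered 146.1 in prp2-1, 185.5 in the 37 °C wild type, 150.5 in replicate 1 and 222.5 in replicate 2. On that scale the 37 °C wild type lay between the 30 °C libraries, and prp2-1 lay just below replicate 1. The ratio of the 37 °C wild type was then 1.23 (0.944 to 1.61) to replicate 1 and 0.834 (0.628 to 1.11) to replicate 2. Against all aligned reads the ratio was 1.09 (0.836 to 1.43) to replicate 1 and 0.626 (0.471 to 0.833) to replicate 2. The part of read length in the difference was not tested.

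Between prp2-1 and the wild type at 37 °C the ratio was 0.822 (0.575 to 1.17). The 30 °C replicates differed from each other by a similar amount, with a ratio of replicate 2 to replicate 1 of 1.23 (1.003 to 1.504). Within the 6 shared sequencing cells, prp2-1 lay below the wild type in 4. Its level ran between 10.05 and 37.8 per 10000 over these cells, against 16.1 and 34.0 in the wild type. The difference between the 37 °C libraries was thus similar in size to that between the 30 °C libraries, which also differ in strain and read length. With identical alignments counted once the ratios were 0.861 (0.601 to 1.23) at 37 °C and 1.15 (0.934 to 1.41) at 30 °C.

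**Figure D1:**
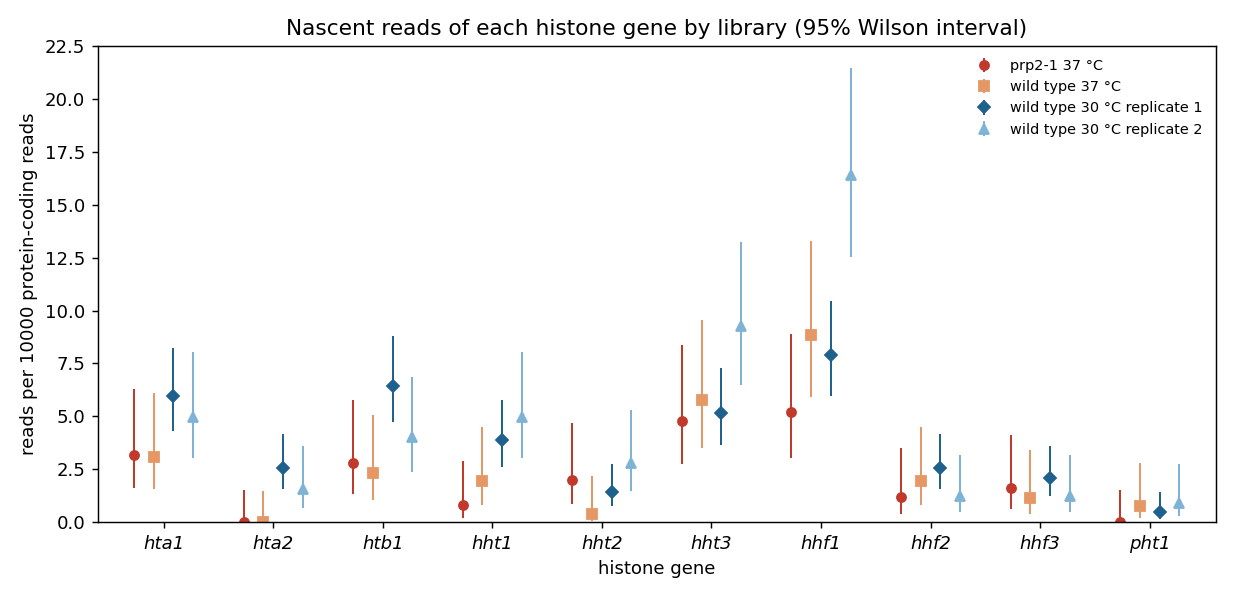
Reads per 10000 protein-coding reads of each histone gene (x axis), with a point for each library and its 95% Wilson interval. The H4 gene hhf1 and the H3 gene hht3 stand highest at 37 °C, hta2 has no read in either 37 °C library, and pht1 is low throughout.

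The H2A genes and the single H2B gene took smaller shares of protein-coding reads at 37 °C. H2A had 8 reads in prp2-1 and 8 in the 37 °C wild type, against 53 in replicate 1 and 21 in replicate 2. H2B had 7 in prp2-1 and 6 in the 37 °C wild type, against 40 in replicate 1 and 13 in replicate 2. Of the H2B reads, 21 in replicate 1 began after the end of the coding sequence, against 1 in each other library. The H2B ratios below include these reads. As a share of protein-coding reads, the 37 °C wild type stood at 0.361 times replicate 1 (0.172 to 0.759) and 0.475 times replicate 2 (0.210 to 1.07) for H2A. For H2B the ratios were 0.359 (0.152 to 0.845) and 0.575 (0.219 to 1.51). Against reads of short genes the intervals of all 4 ratios included 1, and the ratios lay between 0.650 and 0.866.

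The second H2A gene, hta2, was the only histone gene with reads in both 30 °C libraries and none in either 37 °C library. It had 0 reads in prp2-1, which allows up to 1.197 per 10000, and 0 in the 37 °C wild type, which allows up to 1.16. It had 16 reads in replicate 1, or 2.58 per 10000, and 5 in replicate 2, or 1.55. Set against the measured 30 °C levels, a limit of 3 reads put the 37 °C wild type 2.23-fold below replicate 1 and 1.34-fold below replicate 2. Those folds leave out the counting error of the 30 °C reads. The Wilson interval of the 37 °C wild type was 0 to 1.48 per 10000. It overlapped that of replicate 2 (0.661 to 3.62) but not that of replicate 1 (1.59 to 4.19). By Fisher's exact test against replicate 1 the adjusted p of hta2 was 0.0523, which misses the threshold of 0.05. It was 0.0508 to 0.143 under the alternatives over all protein-coding genes at the same minimum of reads. Over genes of at most 1319 nt alone it was 0.183. The other H2A gene, hta1, had 8 reads in prp2-1, 8 in the 37 °C wild type, 37 in replicate 1 and 16 in replicate 2. All H2A reads at 37 °C thus came from hta1.

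The H3 and H4 genes also lay lowest at 37 °C as a share of protein-coding reads. The 37 °C wild type, though, lay nearer to replicate 1 than the 30 °C replicates lay to each other. H3 genes had 7.58 reads per 10000 in prp2-1 and 8.09 in the 37 °C wild type, against 10.5 in replicate 1 and 17.0 in replicate 2. H4 genes had 7.98 in prp2-1 and 11.9 in the 37 °C wild type, against 12.6 in replicate 1 and 18.9 in replicate 2. For H4 the 37 °C wild type stood at 0.950 times replicate 1 (0.627 to 1.44) and 0.633 times replicate 2 (0.411 to 0.975). For H3 the ratios were 0.772 (0.472 to 1.26) and 0.476 (0.288 to 0.786). The copies differed. Against replicate 1 the ratios of hhf1 and hht3 were both 1.12, and those of the other H3 and H4 genes lay between 0.266 (hht2) and 0.747 (hhf2). The interval of each of these genes included 1. Against reads of short genes the ratio to replicate 1 turned to 1.72 (1.14 to 2.61) for H4 and 1.40 (0.857 to 2.29) for H3, while the ratio to replicate 2 was 0.953 (0.620 to 1.47) for H4 and 0.716 (0.434 to 1.18) for H3.

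In each of these families 1 copy held the most reads. Of the H4 copies, hhf1 gave 65% of H4 reads in prp2-1, 74.2% in the 37 °C wild type, 62.8% in replicate 1 and 86.9% in replicate 2. Of the H3 copies, hht3 gave 63.2%, 71.4%, 49.2% and 54.5% in the same order of libraries. The copies can be told apart in these reads. Coding sequences of the H3 copies were identical at 88.3% to 92.7% of 411 nt, and those of the H4 copies at 91.3% to 93.3% of 312 nt. Of the 350 H3 and H4 reads, 344 had at least 30 nt outside coding sequence.

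Per kilobase of gene, the mean level at 30 °C was highest for hhf1, with 14.7 ± 7.26 reads per 10000 (SD, n = 2 for each gene). It was 9.43 ± 3.80 for hht3, 5.32 ± 0.92 for hht1, 5.26 ± 0.69 for hta1 and 3.97 ± 1.30 for htb1. The H3 gene hht2, the H4 genes hhf3 and hhf2, and hta2 lay between 2.36 and 3.03, closer to each other than their spread. The variant gene pht1 was lowest, at 0.568 ± 0.253. It had 0 reads in prp2-1, 2 in the 37 °C wild type, and 3 in each 30 °C replicate. Neighbours in this order differed by less than the larger of their SDs, except hht3 and hht1, and hta2 and pht1. The order depended on the division by length. Undivided, hta1 (5.46 ± 0.72 reads per 10000) and htb1 (5.24 ± 1.72) stood above hht1 (4.41 ± 0.76). The lowest core gene was then hhf3 (1.67 ± 0.61), while hhf1 and hht3 stayed highest and pht1 lowest.

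Tests of single genes used Fisher's exact test, two-sided, with Benjamini-Hochberg adjustment over all protein-coding genes with at least 10 reads in the pair of libraries. In prp2-1 against the 37 °C wild type, 4 histone genes were deep enough and 0 were called, where 2.95% of all 1423 genes tested were called. At an unadjusted p under 0.05 there were 0 of the 4 histone genes and 173 of the 1423 genes. Levels were above the wild type in 4 of the 10 genes, below it in 5 and equal in 1. The median log2 ratio, with 0.5 reads added to each count, was -0.11 over the 4 histone genes and -0.09 over all genes tested. The largest difference in reads was that of hhf1, with 13 reads in prp2-1 and 23 in the wild type, a ratio of 0.585 (0.296 to 1.15) and an adjusted p of 0.608.

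In the 37 °C wild type against replicate 1, 9 histone genes were tested and 0 called, where 9.56% of 2228 genes were called. At an unadjusted p under 0.05 there were 2 of the 9 histone genes and 471 of the 2228 genes, a similar share. The 2 histone genes were hta2 and htb1, and htb1 had 6 reads in the 37 °C wild type and 40 in replicate 1 (Fisher's exact test, adjusted p = 0.105). Of those htb1 reads, 1 in the 37 °C wild type and 21 in replicate 1 began after the end of the coding sequence. Over genes of at most 1319 nt alone, 0 of 9 histone genes were called, where 42 of 363 genes were. There the adjusted p of Fisher's exact test was 0.183 for hta2 and 0.0518 for hhf1. On that scale hhf1 was higher in the 37 °C wild type. As a share of protein-coding reads, levels of 7 of all 10 genes were below replicate 1 and 3 above. Against replicate 2, 6 histone genes were tested and 0 called by Fisher's exact test, where 5.63% of 1722 genes were called. At an unadjusted p under 0.05 there were 313 of the 1722 genes and 1 of the 6 histone genes. That 1 was hhf1, with 23 reads in the 37 °C wild type and 53 in replicate 2 (Fisher's exact test, adjusted p = 0.154). Levels of 9 of the 10 genes were below replicate 2, and hhf2 was above it. Of the histone genes tested, 7 of 9 lay below replicate 1 and 6 of 6 below replicate 2. Over all genes tested, 39.4% lay below replicate 1 and 45.1% below replicate 2. Those genes were of any length, and short genes held fewer of the protein-coding reads at 37 °C.

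Between the 30 °C replicates, 1 of 9 histone genes tested was called, where 6.21% of 2417 genes were. This was hhf1, which was higher in replicate 2, with 53 reads in replicate 2 and 49 in replicate 1, a ratio of 2.08 (1.41 to 3.06) and an adjusted p of 0.00829. With identical alignments counted once the adjusted p was 0.0729, which ends the call; over 4 alternatives it ran between 4.67e-06 and that value. The H3 gene hht3 had 30 reads in replicate 2 and 32 in replicate 1, a ratio of 1.799 (1.09 to 2.96), with an adjusted p of 0.179.

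The divergent pairs were compared to see whether partners that share a gap share its output. In the pair of hta1 and htb1 (chromosome III) the reads were near an even split in every library. The partners had 8 and 7 reads in prp2-1, 8 and 6 in the 37 °C wild type, 37 and 40 in replicate 1, and 16 and 13 in replicate 2. The share of hta1 was between 48.1% and 57.1%. Of the 40 htb1 reads in replicate 1, however, 21 began after the end of its coding sequence. Reads that began within 50 nt of the annotated gene start were more numerous for hta1 in every library. For hta1 and htb1 they numbered 7 and 2 in prp2-1, 6 and 4 in the 37 °C wild type, 28 and 11 in replicate 1, and 13 and 5 in replicate 2. The split of these reads was not tested.

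The H4 gene held most reads in the pair of hht1 and hhf1 (chromosome I), and this held in all 4 libraries. Reads of hht1 made up 13.3% in prp2-1 (2 of 15), 17.9% in the 37 °C wild type (5 of 28), 32.9% in replicate 1 (24 of 73) and 23.2% in replicate 2 (16 of 69). The exact binomial test of an even split gave adjusted p-values of 0.0160 in prp2-1, 0.00325 in the 37 °C wild type, 0.0116 in replicate 1 and 6.71e-05 in replicate 2. The partners are of nearly the same length, 829 nt for hht1 and 827 nt for hhf1.

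In the pair of hht3 and hhf3 (chromosome II) it was the H3 gene that held most reads. Reads of hht3 made up 75% in prp2-1 (12 of 16), 83.3% in the 37 °C wild type (15 of 18), 71.1% in replicate 1 (32 of 45) and 88.2% in replicate 2 (30 of 34). Adjusted p-values of the exact binomial test were 0.120, 0.0197, 0.0158 and 4.69e-05 in the same order. The partners are 766 nt and 622 nt long as annotated, and the annotation of hhf3 begins at its start codon. With reads expected in proportion to those lengths, the adjusted p of the exact binomial test was 0.213 in prp2-1, 0.0527 in the 37 °C wild type, 0.0834 in replicate 1 and 0.000484 in replicate 2, which ends the calls in the 37 °C wild type and in replicate 1. The pair of hht2 and hhf2 (chromosome II) went either way, with hht2 at 62.5% in prp2-1 (5 of 8), 16.7% in the 37 °C wild type (1 of 6), 36% in replicate 1 (9 of 25) and 69.2% in replicate 2 (9 of 13), and was not called where it was tested.

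Unequal partners were common among divergent pairs. The histone pairs called were 1 of 3 tested in prp2-1, 2 of 3 in the 37 °C wild type, 2 of 4 in replicate 1 and 2 of 4 in replicate 2. Of all divergent pairs at most 2000 nt apart, 57.1% of 280 were called in prp2-1, 47.9% of 353 in the 37 °C wild type, 48.6% of 695 in replicate 1 and 39.4% of 472 in replicate 2. The histone shares were near that background.

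**Figure D2:**
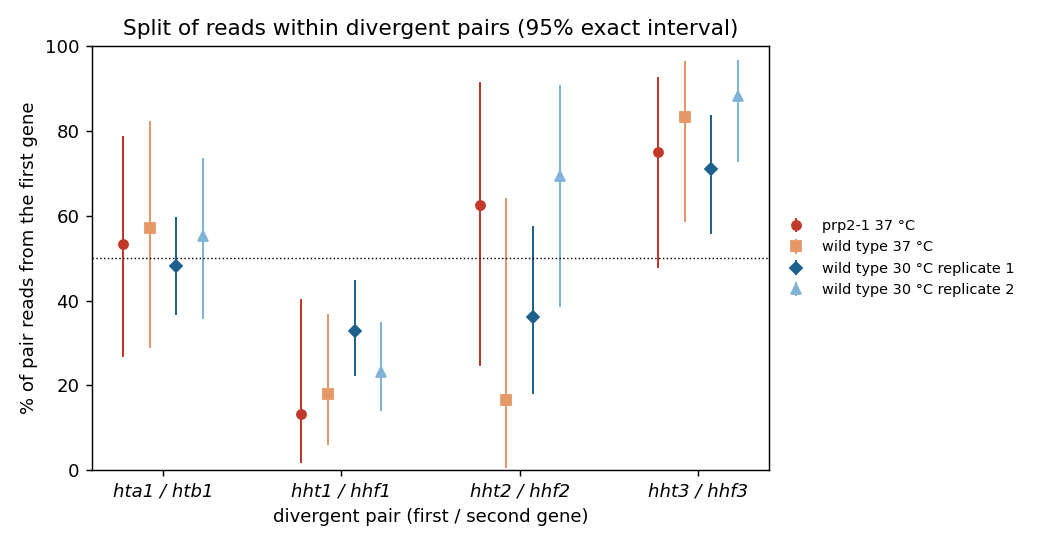
Share of the reads of each divergent histone pair that came from its first-named gene (y axis, in percent), with a point for each library and its 95% exact interval; the dotted line marks an even split. The pair of hht1 and hhf1 lies below the line in every library, at 13.3% to 32.9%, and that of hht3 and hhf3 above it, at 71.1% to 88.2%.

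Most histone reads began near the annotated gene start. The 5′ end lay within 50 nt of the annotated gene start for 77.8% of reads in prp2-1, 80.9% in the 37 °C wild type, 66.9% in replicate 1 and 84.3% in replicate 2. Over other protein-coding genes the shares were 53.8%, 55.3%, 46.6% and 52.4% in that order, and over other genes of at most 1319 nt they were 78.2%, 76.3%, 72.9% and 76.6%. The short-gene share lay inside the histone interval in prp2-1 (65.1 to 86.8) and the 37 °C wild type (70.0 to 88.5), just above it in replicate 1 (60.8 to 72.6) and below it in replicate 2 (77.7 to 89.2). With the start of hhf3 moved to the most frequent first base of its reads, a change made after the values were seen, the histone share in replicate 1 was 71.1% (65.1 to 76.5), an interval that holds the short-gene share.

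The windows below hold the most frequent first base of the reads of 5 genes, in capitals, and show how different the start sites are. The first 2 lines are the sharpest starts, followed by hht2, the only gene whose reads most often began with G (the other 9 began with A), by hhf3, whose reads began upstream of the annotated gene, and by htb1, whose reads were spread out.

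hhf1, chrI:4699585-4699614, minus strand: aacttccctctcttcAgacaatcatttctt
hta1, chrIII:1412167-1412196, minus strand: tgtctccttttccctAtatcgcgacttttc
hht2, chrII:1365101-1365130, plus strand: gtgtccacacccgacGtggaaagaaccttt
hhf3, chrII:3529697-3529726, plus strand: gcataccctactagcAatagaagcactgtt
htb1, chrIII:1412344-1412373, plus strand: gcctgcaggcatgttAgttaataccaacaa

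Of the 138 reads of hhf1, 122 began at exactly the same base, the annotated start, and 90.6% within 2 nt of it. This base led in all 4 libraries, with 13 of 13 reads in prp2-1, 20 of 23 in the 37 °C wild type, 41 of 49 in replicate 1 and 48 of 53 in replicate 2. For hta1 46 of 69 reads began at the annotated start, and for hht3 52 of 89. Reads of hht2 clustered 3 nt upstream of it, with 70.8% of 24 reads within 2 nt of that base. Starts of hhf2, hta2 and hht1 were less sharp, with 32.1%, 33.3% and 42.6% of reads within 2 nt of the most frequent base.

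For hhf3 the most frequent 5′ end lay 55 nt upstream of the annotated gene start, at 12 of 24 reads, and 62.5% began within 2 nt of it. The annotation gives hhf3 no 5′ UTR, and these reads place 55 nt before the start codon. For pht1 the most frequent start was 16 nt upstream of the annotated one, in 3 of 8 reads. Of the TATA-like letters TATATA, searched on both strands in the 60 nt before the start, 7 of the 10 genes had a match when windows ended at the read start. Of all annotated starts 8.92% had one, and of the histone genes measured that way 6 did.

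The H2B gene htb1 had the least defined start. Only 8 of its 66 reads (12.1%) began within 2 nt of the most frequent base, and 24 began after the end of the coding sequence. Of these 24, 1 was in prp2-1, 1 in the 37 °C wild type, 21 in replicate 1 and 1 in replicate 2. Replicate 1, with the shortest reads, thus held nearly all of them. The annotated 3′ UTR of htb1 is 813 nt, the longest of the 10 genes.

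**Figure D3:**
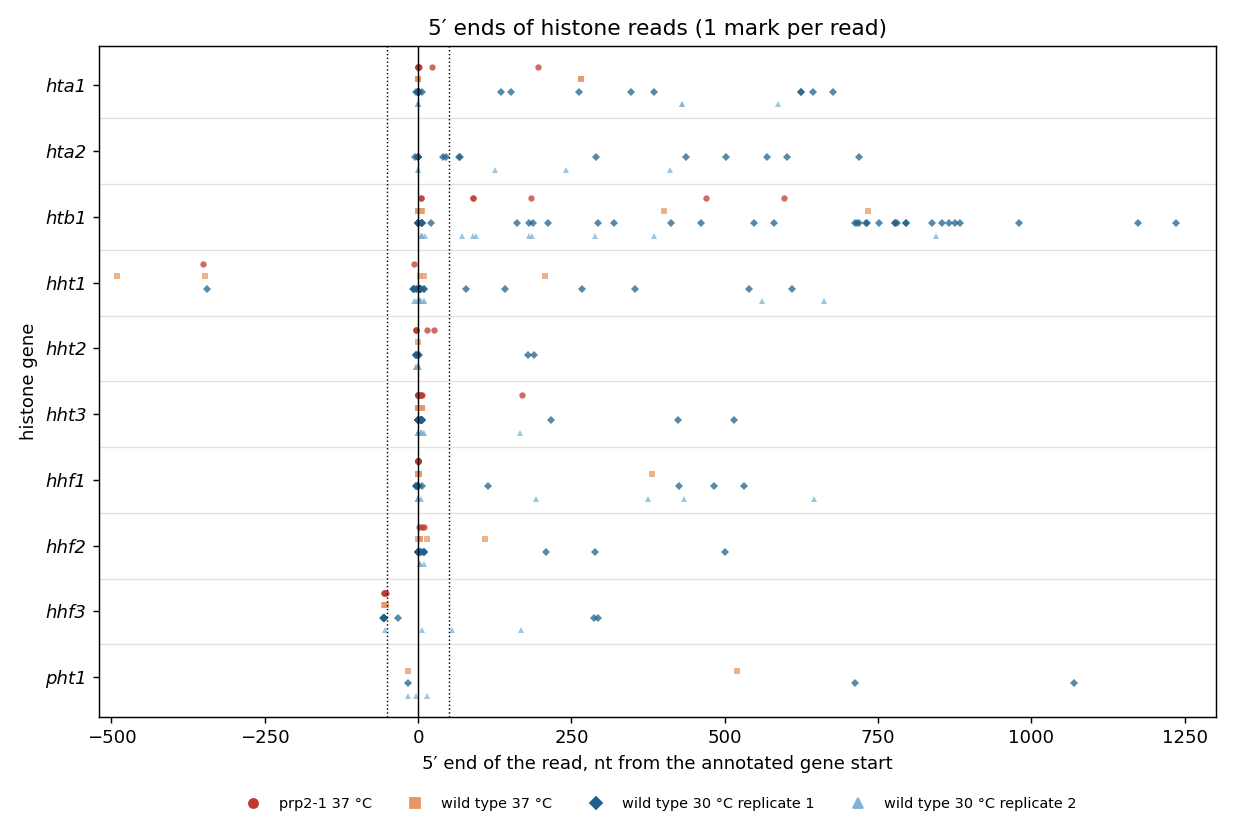
Position of the 5′ end of each histone read relative to the annotated gene start (x axis, in nt), with 1 mark per read, a row for each gene and a marker for each library; dotted lines mark 50 nt on either side. The reads of hhf1 pile up on the start, those of hhf3 lie 55 nt before it, and those of htb1 are spread along the gene.

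A few reads of hht1 began inside hhf1, its divergent partner, on the opposite strand of it. There was 1 in prp2-1, which began 350 nt upstream of hht1, 2 in the 37 °C wild type, 491 and 347 nt upstream, 1 in replicate 1, 345 nt upstream, and 0 in replicate 2. No other paired gene had such a read in any of the 4 libraries. Reads on the opposite strand of a histone gene were rare, with 2 in prp2-1, 3 in the 37 °C wild type, 3 in replicate 1 and 8 in replicate 2.

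The 3′ end of a nascent read marks how far the RNA had been made or where it had been cut. Ends were placed in the body (more than 50 nt before the annotated gene end), at the end (from there to 100 nt past it) or past the gene (more than 100 nt past it). Ends past the gene made up 20.4% of histone reads in prp2-1 (11.8 to 32.9), 29.4% in the 37 °C wild type (19.9 to 41.1), 7.53% in replicate 1 (4.82 to 11.6) and 14.4% in replicate 2 (9.69 to 20.8). Both 37 °C libraries lay above both 30 °C libraries, and their intervals overlapped that of replicate 2 but not that of replicate 1. Over all other protein-coding genes the shares were 5.26%, 7.34%, 3.74% and 4.93% in that order. Over other genes of at most 1319 nt they were 14.4%, 24.8%, 5.86% and 13.5%, and each lay inside the interval of the histone genes.

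**Figure D4:**
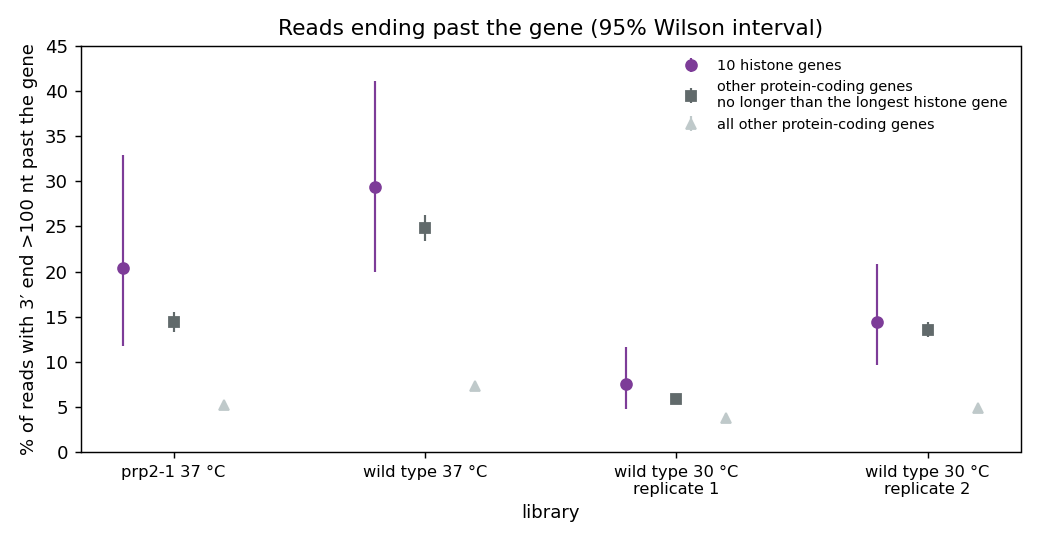
Share of reads whose 3′ end lies beyond the annotated gene end by over 100 nt (y axis, in percent) in each library (x axis), for the 10 histone genes, for other protein-coding genes of at most the length of the longest histone gene, and for all other protein-coding genes, with 95% Wilson intervals. The histone shares, between 7.53% (replicate 1) and 29.4% (wild type at 37 °C), lie near those of the short genes and above those of all other genes.

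The H4 gene hhf1 gave the most of these reads in every library. Its 3′ ends lay past the gene in 7 of 13 reads in prp2-1, 13 of 23 in the 37 °C wild type, 8 of 49 in replicate 1 and 15 of 53 in replicate 2. The furthest lay 805 nt past the end in prp2-1, 1208 nt in the 37 °C wild type, 779 nt in replicate 1 and 882 nt in replicate 2. Without hhf1 the histone share past the gene was 9.76% in prp2-1, 15.6% in the 37 °C wild type, 5.26% in replicate 1 and 7% in replicate 2. The partner of hhf1, hht1, had 1 of 2 reads past its end in prp2-1, 3 of 5 in the 37 °C wild type, 3 of 24 in replicate 1 and 3 of 16 in replicate 2.

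The H4 gene hhf2 had 1 of 3 reads past its end in prp2-1, 2 of 5 in the 37 °C wild type, 1 of 16 in replicate 1 and 1 of 4 in replicate 2. For hta1 0 of 69 reads in all libraries ended past the gene, and for htb1 3 of 66 did, all 3 in replicate 1. The H3 gene hht3 had 2 of 12 in prp2-1, 2 of 15 in the 37 °C wild type, 0 of 32 in replicate 1 and 1 of 30 in replicate 2. Its 3′ ends lay at the end of the gene in 0 of 12 reads in prp2-1, 6 of 15 in the 37 °C wild type, 7 of 32 in replicate 1 and 8 of 30 in replicate 2. The base 52 nt before the end falls just outside that class. It ended 2 hht3 reads in prp2-1, 1 in the 37 °C wild type, 0 in replicate 1 and 2 in replicate 2.

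Ends inside the coding sequence made up 16.7% of histone reads in prp2-1 and 16.2% in the 37 °C wild type, against 36.0% in replicate 1 and 30.7% in replicate 2. Reads that covered a gene from within 50 nt of its start to at least 50 nt before its end made up 24.1% in prp2-1, 39.7% in the 37 °C wild type, 8.79% in replicate 1 and 28.8% in replicate 2. The most frequent start of hhf3 reads, 55 nt upstream of the annotated one, lies outside that window. Reads of hhf3 from there were left out of these shares even where they reached the end. The median span of histone reads also differed, and was 641.5 nt in prp2-1, 812.5 nt in the 37 °C wild type, 386 nt in replicate 1 and 624 nt in replicate 2. The part of read length in these shares was not tested.

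Some 3′ ends fell on the same base in several libraries. The base 52 nt before the end of hht3 ended 5 reads in 3 libraries, that 182 nt before the end of hta1 ended 4 reads in 3, that 504 nt before the end of hhf1 ended 4 in 3, and the annotated end of hht1 itself ended 4 in 3. None of these reads shared a name between the 37 °C libraries.

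**Figure D5:**
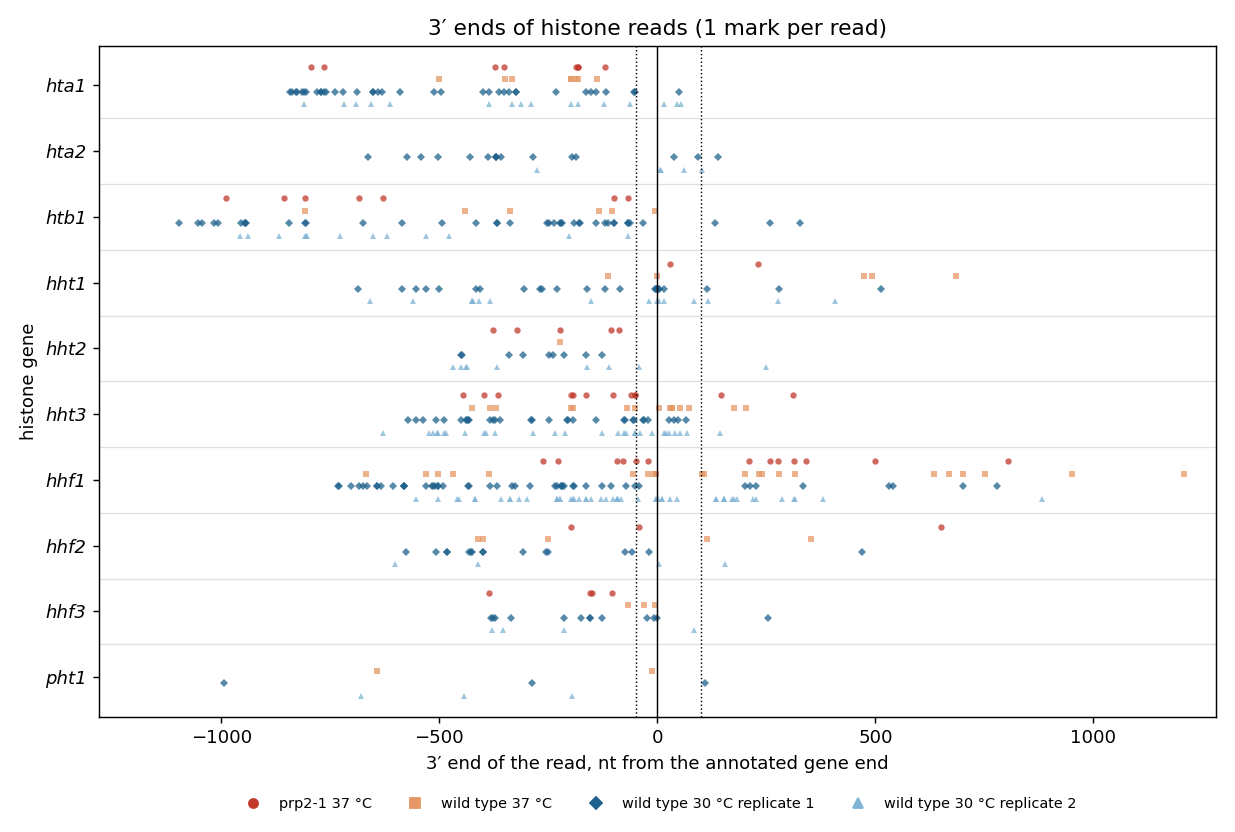
Position of the 3′ end of each histone read relative to the annotated gene end (x axis, in nt), with 1 mark per read, a row for each gene and a marker for each library; dotted lines mark 50 nt before and 100 nt past the end. Reads of hhf1 reach up to 1208 nt past the end, while no read of hta1 lies beyond the right dotted line.

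Splicing of pht1 could not be scored. The annotation used here gives all 10 histone genes 0 introns, pht1 included, and no gap appeared in any of the 514 histone reads, of which 8 were from pht1. The histone genes therefore give no spliced share in any library.

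The profile of the 9 core genes over the 4 libraries was closest to that of rps7, which encodes a protein of the small ribosomal subunit. The distance between centred log2 profiles was 0.153, and 850 genes with at least 40 reads were searched over 4 libraries. Its level was 17.6 reads per 10000 in prp2-1, 18.5 in the 37 °C wild type, 27.1 in replicate 1 and 33.7 in replicate 2. The next were rps3001, another gene of that subunit (0.181), and SPAC8E11.10 (0.182).

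Genes that carry or regulate histones were counted in the same way. The list of 21 histone chaperones and regulators summed to 41.1 reads per 10000 in prp2-1 and 48.6 in the 37 °C wild type, against 31.3 in replicate 1 and 35.9 in replicate 2. Its ratio of the 37 °C wild type was 1.55 (1.24 to 1.94) to replicate 1 and 1.35 (1.05 to 1.74) to replicate 2. The median gene tested was also higher in the 37 °C wild type, by 0.23 on the log2 scale against replicate 1 and 0.10 against replicate 2. These shares rest on all protein-coding reads, of which short genes held fewer at 37 °C, and the part of gene length in them was not tested. By Fisher's exact test 0 of 10 genes tested were called in prp2-1 against the wild type (1 at an unadjusted p under 0.05), where 2.95% of all genes were. In the 37 °C wild type, 0 of 11 were called against replicate 1 (3 at an unadjusted p under 0.05), where 9.56% of all genes were, and 0 of 10 against replicate 2 (2 at an unadjusted p under 0.05), where 5.63% were. Of all genes tested, 173 of 1423, 471 of 2228 and 313 of 1722 had an unadjusted p under 0.05 in these 3 comparisons, in that order. The chaperone gene spt16, a subunit of FACT, which moves histones during transcription, was higher in replicate 2, with 28 reads, against 13 in replicate 1 (Fisher's exact test, adjusted p = 0.000484). The gene of that list with the most reads was hip3, of the HIRA histone chaperone, with 7 reads in prp2-1, 22 in the 37 °C wild type, 30 in replicate 1 and 16 in replicate 2. For prp2-1 against the 37 °C wild type its unadjusted p was 0.00838 and its adjusted p 0.153, by Fisher's exact test.

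The list of 11 S phase genes driven by the factor MBF summed to 17.2 reads per 10000 in prp2-1, 20.04 in the 37 °C wild type, 14.5 in replicate 1 and 26.3 in replicate 2. Both 37 °C libraries thus lay between the 30 °C libraries. By Fisher's exact test 0 of 4 genes tested were called in prp2-1 against the wild type, where 2.95% of all genes were. In the 37 °C wild type 0 of 6 were called against replicate 1, where 9.56% of all genes were, and 0 of 5 against replicate 2, where 5.63% were. In these comparisons 0 of the genes had an unadjusted p under 0.05. The S phase cyclin gene cig2 was higher in replicate 2, with 34 reads, against 24 in replicate 1 (Fisher's exact test, adjusted p = 0.00453), and had 10 reads in prp2-1 and 18 in the 37 °C wild type. The ribonucleotide reductase gene cdc22 had 13 reads in prp2-1, 10 in the 37 °C wild type, 26 in replicate 1 and 20 in replicate 2.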

How the data were processed

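Long nascent reads of 4 libraries were analysed: prp2-1 at 37 °C (1), wild type at 37 °C (1) and wild type at 30 °C (2). The deposited files hold 1 aligned read per line (start, end, strand and blocks), not normalized. Their score column, which the authors deposited as 40 in every line, was not used. Reads were trimmed with cutadapt 1.8, per the submitters' processing notes, and file names mark reads with poly(A) as filtered out. The aligner and genome build are not given in the sources used here. Between 88.7% and 94.0% of read gaps matched an annotated intron of ASM294v3 exactly.

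Each read was assigned to the same-strand gene with the most overlapping bases. Fisher's exact test, exact binomial tests and Wilson intervals were computed with scipy 1.17.1 in Python 3.11.15, at a threshold of 0.05 and a minimum of 10 reads. Scripts were tested on simulated data. The members and gene lists were chosen with earlier results of these data known. Text names all 10 members, the 3 genes with the nearest profile, and from each list the 2 genes with the most reads and any called gene. Alternatives are given in the closing section. The sequence window of 1 pair is not reported here.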

Additional observations from a re-analysis of the deposited data

How the results depend on the processing

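Of 176 alternative values, 136 stayed within the interval or within 1.5 times of the count reported, 37 moved further and 3 reversed. With all aligned reads as denominator, histone reads per 10000 were 16.002 in prp2-1, 19.3 in replicate 1 and 33.8 in replicate 2 (30 °C mean 26.5). The ratio of the 37 °C wild type to replicate 1 reversed to 1.09, that to replicate 2 was 0.626, and that of replicate 2 to replicate 1 was 1.75. That denominator gave 551 of 2228 genes called in the 37 °C wild type against replicate 1, with 0 of 9 histone genes. In replicate 2 against replicate 1 it gave 303 of 2417 genes, with 2 of 9 histone genes.

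The next alternatives were chosen after the data were seen. With reads of genes of at most 1319 nt as denominator the values were 146.1 in prp2-1, 185.5 in the 37 °C wild type, 150.5 in replicate 1 and 222.5 in replicate 2 (mean 186.5), and the ratio of the 37 °C wild type reversed to 1.23 against replicate 1 and was 0.834 against replicate 2. Over those genes alone, 6 of 181 tested were called in prp2-1 against the wild type and 42 of 363 in the 37 °C wild type against replicate 1. Against replicate 2 it was 9 of 252, and in replicate 2 against replicate 1 it was 46 of 423. Histone genes called were 0 of 4, 0 of 9, 0 of 6 and 2 of 9 (hhf1 and hht3) in that order. Without hhf1 and hht3 the values were 11.6 in prp2-1, 11.6 in the 37 °C wild type, 25.5 in replicate 1 and 21.7 in replicate 2 (mean 23.6). The ratio of the 37 °C wild type to replicate 1 was then 0.454, and that of replicate 2 to replicate 1 reversed to 0.850. Without hhf1 the share of ends past the gene was 9.76% in prp2-1, 15.6% in the 37 °C wild type and 7% in replicate 2. The causes were not tested.

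With identical alignments counted once, 0 histone genes and 122 of all genes were called between the 30 °C replicates by Fisher's exact test. With every alignment counted it was 1 of 9 histone genes tested and 150 of 2417 genes. Counted once, hhf1 had an unadjusted p of 0.00427 and an adjusted p of 0.0729 by that test. For pairs up to 1000 nt apart, 101, 110, 225 and 120 pairs were called in prp2-1, the 37 °C wild type, replicate 1 and replicate 2, since fewer pairs were tested. With reads expected by gene length, 1 of 3 histone pairs tested was called in the 37 °C wild type and 1 of 4 in replicate 1, since the pair of hht3 and hhf3 lost its call. Of all divergent pairs tested, 114 of 353 and 270 of 695 were then called in these libraries. For ends more than 200 nt past the gene, the share was 6.54% in replicate 2 and 5.99% on average at 30 °C. Leaving out either 30 °C replicate gave 38.5 to 47.3 histone reads per 10000, 7.53% to 14.4% of ends past the gene and 66.9% to 84.3% of starts near the annotated one.

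No paired analysis was possible because each 37 °C group has 1 library whose label carries no replicate number, so the groups compared share under 2 numbers. Alternatives for splicing of pht1 were not run, since the annotation gives it 0 introns. Depth limits single genes: with under 10 reads in a library, only large differences could be called.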
